A study of Mus musculus with 6 samples.

Results

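The contrast set cells made to express more miR-26a directly against cells expressing a sponge for the miR-26 family, so that it spans both ends of the manipulation. Its members were 4 of the 6 arrays of the series, 2 of miR-26a cells and 2 of sponge cells, taken by their labels and paired by replicate number, and the 2 arrays of cells with an empty control vector were left out of every test. All cells were 1676 cells, a mouse pre-B cell line of the genotype SLP-65-/- LAT-/-, grown in an excess of the growth factor IL-7 and selected with puromycin after retroviral infection. The miR-26a cells carried a construct with hsa-miR-26a-2, the sponge cells a miR-26 sponge and the control cells the vector alone. The line is a single cell line, a scrambled sponge was not analysed here, and the 2 experiments used cells generated separately for each.

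A microRNA guides a silencing complex to messenger RNAs that pair with its seed, the bases near its 5′ end, and such messengers are commonly translated less and degraded faster. A sponge is a transcript with many binding sites for the microRNA, which occupies it and can release its targets. Pre-B cells divide in IL-7, carry the pre-B cell receptor, and when they mature express the recombinase RAG1 and RAG2, which cuts the immunoglobulin light chain genes.

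The mature sequences are shown because miR-26a and miR-26b share the seed, and because the probes described further on were sorted by matches to it. Mature mouse miR-26a comes from 2 genes, Mir26a-1 at chr9:119031811-119031832 and Mir26a-2 at chr10:126995543-126995564, and miR-26b from Mir26b at chr1:74394324-74394344, all on the plus strand of GRCm38.p6 in RefSeq. Capitals mark the seed, bases 2 to 8.
mmu-miR-26a-5p: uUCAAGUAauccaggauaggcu
mmu-miR-26b-5p: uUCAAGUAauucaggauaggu
Both carry the same seed, UCAAGUA.

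Total RNA was hybridized to single-colour arrays of 55681 different probes of 60 bases, all 6 on one slide, with 28823 to 29800 spots well above background per array and no saturated spot. Each level below is a log2 intensity after the authors' quantile normalization, so that 1 unit is a doubling. Levels of different probes are not comparable with each other. On the slide the replicate number was the row and the group was the column, so an effect of the column cannot be told apart from the construct, nor one of the row from the experiment. Replicates correlated across the tested probes at 0.9971 for miR-26a and 0.9959 for the sponge. The arrays do not measure the short mature microRNA. Of 12 B-lineage markers 10 were well above background on all 4 arrays, with a summed intensity of 491790 to 558727 over the 6 arrays, while Ms4a1 and Blk were not above background on any of the 4. Of 16 myeloid markers 6 were above on all 4 arrays (summed 9025 to 11890) and Cd14, Cebpa, Cebpe and Ly6g on none. Of 13 T and natural killer cell markers 6 were above (summed 13334 to 18222, most of it the kinase Zap70) and Cd3g, Cd8a, Bcl11b, Gata3 and Ncr1 on none. Gata1, Hbb-b1 and Pf4 of the 9 erythroid and megakaryocyte markers were above on none. Blnk, which encodes SLP-65, gave levels of 14.88 to 15.60 on the 6 arrays although the protein is absent from the line, and where its probe lies relative to the deletion is not known here, so it checks no label. Its probe was lower with miR-26a by a log2 difference of -0.61 and that of Lat was at -0.09, not called. Cd5, on the T cell list, was under the minimum signal with miR-26a, at 4.82 and 4.05, and lay at 7.02 and 6.53 with the sponge and 6.64 and 6.20 in control.

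Of 19420 probes tested, 1241 (6.39%) were lower and 1023 (5.27%) were higher with miR-26a than with the sponge, 11.7% in all, at a Benjamini-Hochberg adjusted p from limma of less than 0.05, which is what is meant by called throughout. With p unadjusted, 2748 were lower and 3144 higher at the same limit. Each called probe had the same sign in both pairs, and on 2176 of the 2264 the groups did not overlap, as they did not on 50.8% of all tested probes. The larger differences lay mostly below 0: 157 probes were lower and 57 higher by at least 1 on the log2 scale. The median was -0.57 for those called lower, 0.49 for those called higher and 0.016 over all tested probes. By gene, taking the brightest probe of each, 760 of 10994 (6.91%) were lower and 606 (5.51%) higher, 12.4% in all. The counts depended on the pairing, the filter and the sponge arrays. Without the replicate block 186 probes were lower and 61 higher, and with the minimum signal dropped limma called 0 of 25266, with 2741 lower and 2987 higher at an unadjusted p under 0.05. In a fit that also held the control arrays, which gave 1756 lower and 1772 higher, leaving out sponge replicate 1 gave 479 lower and 306 higher, and leaving out sponge replicate 2 gave 508 lower and 300 higher.

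**Figure D1:**
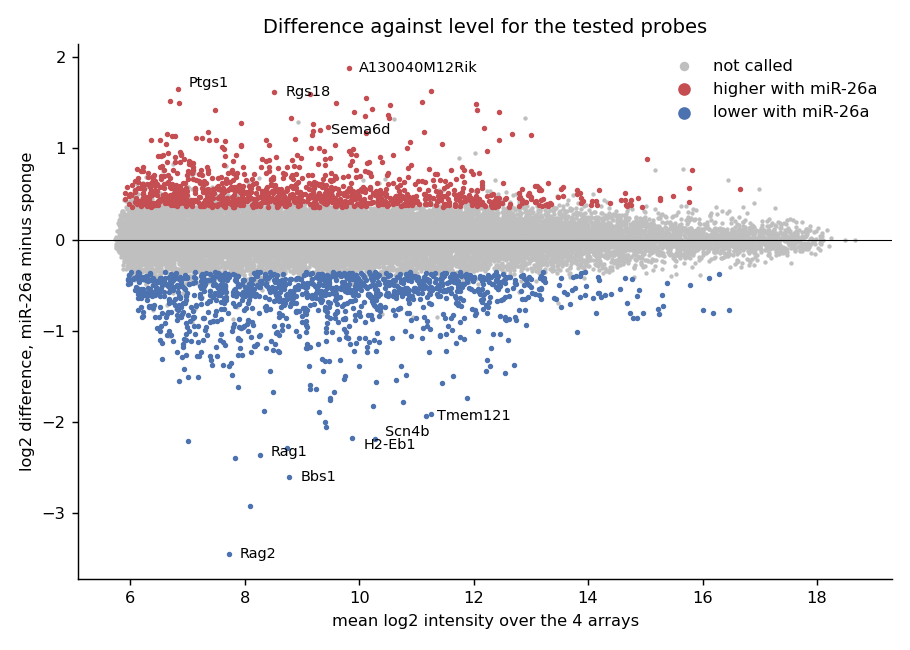
Log2 difference of miR-26a minus sponge (vertical axis) against the mean log2 intensity over the 4 arrays (horizontal axis) for the tested probes, with called probes in red (higher with miR-26a) and blue (lower) and the rest in grey. The points reach -3.46 at Rag2 below and 1.88 at A130040M12Rik above, and the called probes span the whole range of levels except the brightest.

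The control arrays, which took no part in the calls, usually lay nearer to the sponge than to miR-26a. Their position was measured for each probe as the control mean minus the sponge mean, divided by the miR-26a mean minus the sponge mean, so that 0 is the sponge level and 1 the miR-26a level. Its median over the 2264 called probes was 0.22, with 0.20 for those lower and 0.25 for those higher with miR-26a. The position was under 0.25 for 54.6% of the called probes, between 0.25 and 0.75 for 36.3% and above 0.75, near miR-26a, for 9.05%. Among all 9864 tested probes whose groups did not overlap, the shares were 42.8%, 33.3% and 23.9%. Both control arrays lay between the groups on 35.7% of the called probes and on 18.8% of those 9864. These are descriptions with no test.

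The largest difference of all tested probes was that of Rag2, and both subunits of the recombinase were among the 12 genes most reduced with miR-26a. Rag2, which encodes the regulatory subunit of the recombinase, lay at 6.05 and 5.95 with miR-26a, at 9.32 and 9.60 with the sponge and at 9.37 and 9.34 in control. Its miR-26a arrays stood far below all the others, an 11.0-fold difference (log2 -3.46, SE 0.11, adjusted p = 0.00158, limma). Rag1, the catalytic subunit, lay at 6.56 and 7.61 with miR-26a, at 9.32 and 9.59 with the sponge and at 9.39 and 9.71 in control (5.16-fold lower, log2 -2.37, SE 0.18, adjusted p = 0.0036, limma). Without the replicate block the adjusted p of Rag1 was 0.052. The probe of B230118H07Rik, today named Iftap, lies on the same chromosome as both, at chr2:101402325-101402384 on the minus strand of mm9, against chr2:101470723-101470782 for Rag2 and chr2:101478813-101478872 for Rag1. It lay at 6.25 and 7.01 with miR-26a and at 8.99 and 9.07 with the sponge (log2 -2.40, SE 0.16, adjusted p = 0.00301, limma). Dntt, the terminal transferase that adds untemplated bases at the joints, was at 11.62 and 11.78 against 12.91 and 12.88 (log2 -1.20, SE 0.09, adjusted p = 0.00368, limma). In all 4 the control arrays lay with the sponge arrays, at control positions of -0.04 to 0.10.

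Of the 10 V(D)J recombination genes, all tested, 4 were lower and none higher, with a median of -0.23, where 6.91% of all genes were lower and 5.51% higher and the median over all probes was 0.016. The fourth was Xrcc4, a partner of the ligase that seals the ends, at -0.39 (SE 0.09, adjusted p = 0.0423, limma). The other end-joining factors were not called: Dclre1c, the nuclease Artemis, was at -0.29 (adjusted p = 0.0896), Xrcc6 at -0.17, Lig4 at -0.12, Prkdc at -0.06, Nhej1 at 0.08 and Xrcc5 at 0.30 (adjusted p = 0.0754). Rag2 and Dntt were also called without the replicate block. Probes for immunoglobulin kappa variable segments, which were singled out after their values had been seen, ran the other way: 27 of 39 tested were higher and 1 was lower, with a median of 0.76, beside 5.27% and 6.39% of all probes. They share sequence with one another, so that they are not separate measurements.

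MHC class II genes, whose products present peptides to T cells, were lower with miR-26a in all 5 members tested (of 10 on the array), with a median of -1.0, beside 6.91% of all genes. H2-Eb1, a beta chain, was at 8.25 and 9.33 with miR-26a, at 10.47 and 11.47 with the sponge and at 10.77 and 11.25 in control (4.53-fold lower, log2 -2.18, SE 0.09, adjusted p = 0.00158, limma). Its level was about 1 unit higher in experiment 2 in each of the manipulated groups, while the difference was -2.22 in pair 1 and -2.14 in pair 2. H2-Oa and H2-Ob, the chains of the peptide-loading regulator DO, were at -1.39 and -0.72, H2-DMa, a chain of the peptide exchanger DM, at -1.0, and H2-Ab1 at -0.61. The other probes of H2-Ob and H2-Ab1 gave -0.64 and -0.63. None of the 5 was called without the replicate block (adjusted p of H2-Eb1 0.0977), 4 were without sponge replicate 1 and 3 without sponge replicate 2. H2-DMb1, a DM chain, was well above background on all 4 arrays but under the minimum signal of 50 with miR-26a, where it lay at 4.86 and 4.30, against 6.37 and 6.85 with the sponge and 6.29 and 6.47 in control. Its log2 difference was -2.03 (adjusted p = 0.0909, limma, in the fit without the signal minimum, in which no probe was called and 22.5% met the criterion of unadjusted p under 0.05, size at least 0.26 and the same sign in both pairs).

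**Figure D2:**
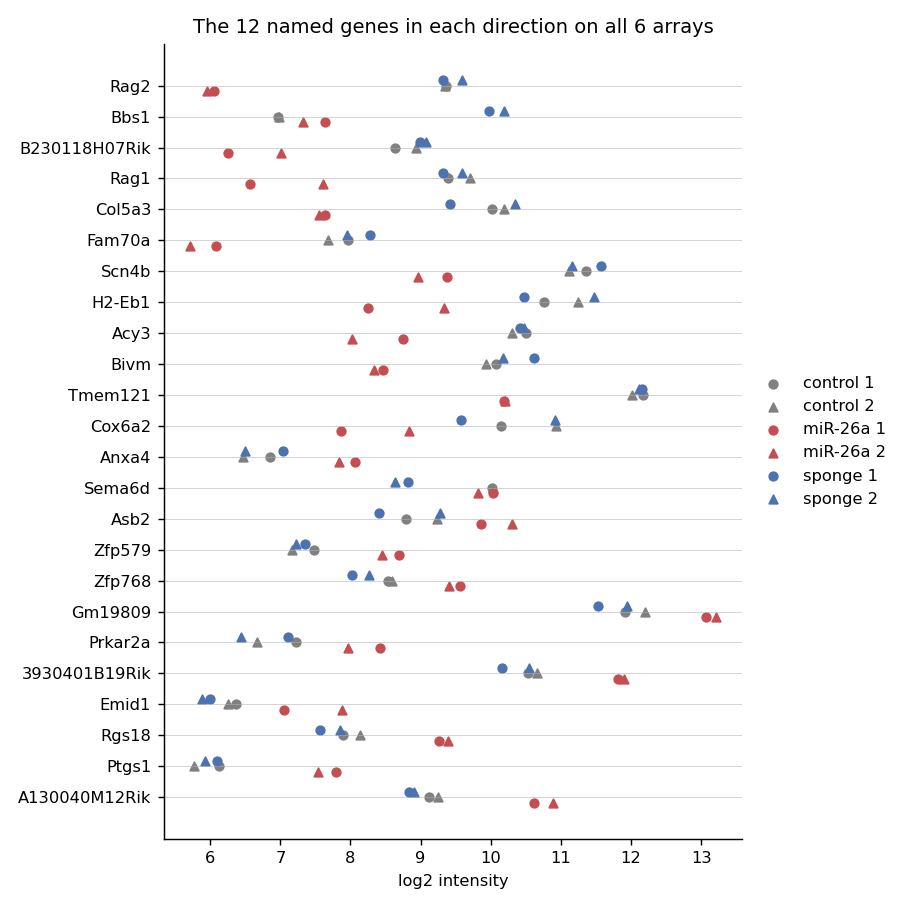
Log2 intensity (horizontal axis) of the 12 annotated genes with the largest called difference in each direction on the 6 arrays, with colour for the group and circles for replicate 1 and triangles for replicate 2. The miR-26a arrays stand apart from the sponge arrays in each row, and the control arrays lie nearer to the sponge arrays except at Bbs1, where they lie below the miR-26a arrays, and at Sema6d, where they lie with them.

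Beyond these, the 12 genes most reduced with miR-26a came from unrelated functions. Col5a3, a fibrillar collagen chain, was at 7.64 and 7.55 with miR-26a and at 9.41 and 10.35 with the sponge (log2 -2.29, SE 0.23, adjusted p = 0.00568, limma). Fam70a, today Tmem255a, a membrane protein gene, was at 6.09 and 5.71 against 8.28 and 7.94 (-2.21). Scn4b, a beta subunit of voltage-gated sodium channels, was at 9.38 and 8.97 against 11.57 and 11.16 (-2.19). The others were Acy3, an aminoacylase, at -2.06, Bivm at -2.01, Tmem121 at -1.94 and Cox6a2, a cytochrome c oxidase subunit, at -1.89. In all 7 the control arrays were above both miR-26a arrays, with control positions of -0.15 to 0.20. The other tested probe of Tmem121 gave -1.92. Cox6a2 was not called without the replicate block (adjusted p = 0.144).

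Genes higher with miR-26a differed by less. A130040M12Rik, an unannotated transcript, was at 10.62 and 10.89 with miR-26a, at 8.84 and 8.91 with the sponge and at 9.12 and 9.24 in control (3.68-fold higher, log2 1.88, SE 0.09, adjusted p = 0.00261, limma), and its other probes gave 1.63 and 1.43. Ptgs1, cyclooxygenase 1, which starts prostaglandin synthesis, was at 7.80 and 7.53 against 6.10 and 5.93, with control at 6.12 and 5.77 (log2 1.65, SE 0.09, adjusted p = 0.00261, limma). Rgs18, which shortens signalling by G proteins, was at 9.27 and 9.39 against 7.57 and 7.86 (1.62). Emid1 was at 7.05 and 7.88 against 6.0 and 5.88 (1.52), and it was not called without sponge replicate 1 (adjusted p = 0.0626) or sponge replicate 2 (0.0879). The others were 3930401B19Rik at 1.51, Prkar2a, a regulatory subunit of protein kinase A, at 1.42, Gm19809 at 1.40, the zinc finger genes Zfp768 and Zfp579 at 1.34 and 1.28, Asb2, a ubiquitin ligase receptor, at 1.24, Sema6d, a semaphorin, at 1.20 and Anxa4, an annexin, at 1.19. The other Gm19809 probe gave 0.40 and was not called (adjusted p = 0.0625). Sema6d stood apart from the rest, since control at 10.02 and 10.03 was level with miR-26a at 10.04 and 9.81, and the sponge arrays were low at 8.82 and 8.63. In the limma fit without the replicate block Emid1, Prkar2a, Asb2 and Anxa4 were not called, with adjusted p of 0.0746, 0.0815, 0.127 and 0.0687. Among list genes under the signal minimum, the differences furthest above 0 were those of Oas1a and Srxn1. Oas1a, an interferon-induced antiviral enzyme, was at 6.91 and 6.36 with miR-26a against 4.68 and 4.54 with the sponge (log2 2.03), and Srxn1, an oxidative stress gene, at 8.68 and 7.30 against 7.26 and 5.40 (1.66), each with an adjusted p of 0.0763 (limma, without the minimum).

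FOXO transcription factors act when the PI3K pathway is quiet, and RAG1 and RAG2 are among the genes they are known to turn on. Of 22 FOXO-responsive genes 21 were tested, and 8 were lower and 1 higher, with a median of -0.11, beside 6.91% lower and 5.51% higher of all genes. Beside Rag1 and Rag2, the lower ones were Trp53inp1, which promotes cell death and autophagy, at -1.74, Irs2, an adaptor of insulin and cytokine receptors, at -1.14, Klf2, a factor for lymphocyte quiescence and homing, at -0.80, Pik3ip1, an inhibitor of PI3K, at -0.56, Ccng2, an atypical cyclin, at -0.56, and the stress protein gene Sesn3 at -0.39. Txnip, an inhibitor of glucose uptake, was higher at 0.63. Trp53inp1 lay at 10.75 and 11.27 with miR-26a, at 12.62 and 12.87 with the sponge and at 12.52 and 12.73 in control, and its other probe gave -1.09. Foxo1, Foxo3, Il7r, Ikzf1, Ikzf3, Cdkn1b, Bcl6, Syk and Bcl2l11 were not called by their brightest probes. Another probe was called for Ikzf1, at 0.41, and for Syk, at -0.46. Rag2 and Trp53inp1 stayed called without the replicate block, and without either sponge array 6 were lower and none higher. The chemokine receptor gene Ccr7, also on the list, fell under the signal minimum: it lay at 4.59 and 4.73 with miR-26a, at 7.49 and 7.33 with the sponge and at 7.26 and 7.06 in control, a log2 difference of -2.75 (adjusted p = 0.0763, limma, without the minimum).

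In the PI3K, AKT and mTOR list 25 of 28 genes were tested, and 6 were lower and 3 higher (9 in all, where 12.4% of all genes were called), with a median of -0.04. Stradb, a pseudokinase partner of LKB1, was at 7.69 and 7.64 with miR-26a, at 9.24 and 9.43 with the sponge and at 9.20 and 9.21 in control (3.18-fold lower, log2 -1.67, SE 0.10, adjusted p = 0.00261, limma), and its other probe gave -0.95. Pik3r5, a regulatory subunit of the PI3K under G proteins, was at -0.72, Pik3ip1 at -0.56, Strada at -0.42, Rptor, the scaffold of mTOR complex 1, at -0.41 and Tsc1, which restrains that complex, at -0.41. Pik3r2, a regulatory subunit, was higher at 0.55 and the kinase Akt1 at 0.41. With the block dropped Stradb and Pik3r5 were called, and without either sponge array 2 were lower and 1 higher. Pik3r3, a regulatory subunit under the signal minimum, lay at 4.97 and 5.62 with miR-26a, at 6.60 and 6.59 with the sponge and between them in control, at 6.0 and 5.96 (log2 -1.30, adjusted p = 0.0939, limma, without the minimum).

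Genes of the cell cycle list moved in both directions. The list was drawn up for the G1/S step but also holds Chfr and Cdk8, which are not specific to it. Of 25 tested, 6 were lower and 2 higher, with a median of 0.04, beside 6.91% and 5.51% of all genes. Of those lower, Skp2, Chfr, Cdk8 and E2f7 had been picked by the study with these same arrays, as lower with miR-26a. Their calls are not independent evidence, so the count cannot be read as an excess over the share of all genes. Skp2, the ubiquitin ligase subunit that marks the inhibitor p27 for destruction, was at 9.81 and 9.93 with miR-26a, at 11.72 and 11.58 with the sponge and at 11.38 and 11.32 in control (3.43-fold lower, log2 -1.78, SE 0.10, adjusted p = 0.00261, limma). Its 3 groups did not overlap and control lay between, an order that the study's choice of Skp2 from these arrays had asked for. Chfr, a mitotic checkpoint ubiquitin ligase, was at -1.11, the Mediator kinase Cdk8 at -0.74, cyclin E1 (Ccne1) at -0.65 and the E2F family members E2f7 and E2f2 at -0.56 and -0.50. E2f1 was higher at 0.64 and Myc at 0.45. The second probe of E2f7 gave -0.22 and was not called. Cyclin D3 (Ccnd3) was not called by its brightest probe, but another of its probes was called higher at 0.56. Skp2, Chfr and Cdk8 were called with the block dropped.

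Among 13 tested genes of the BCL2 family, 4 were lower, none was higher, and the median was -0.05, where 6.91% of all genes were lower. All 4 encode proteins that promote death: Bmf was at 7.99 and 8.69 with miR-26a against 9.53 and 10.36 with the sponge (log2 -1.60, SE 0.09, adjusted p = 0.00261, limma), Bbc3 (PUMA) was at -0.90, Bak1 at -0.77 and Bok at -0.71. The protective members Bcl2, Bcl2l1 and Mcl1 were not called, at -0.00, -0.11 and -0.25, and neither were Bax, Bid, Pmaip1 and Bcl2l11. A second probe of Bad, another such gene, was called higher at 0.40. Bbc3 and Bak1 were called with the block dropped.

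In IL-7 signalling 3 of 14 tested genes were lower and 1 higher, with a median of -0.05, beside 6.91% and 5.51% of all genes. The lower ones were the feedback inhibitors Socs3 (7.59 and 7.43 against 8.57 and 8.35, log2 -0.95), Socs2 (-0.70) and Socs1 (-0.46), and the higher one was the receptor kinase Jak3, at 0.49. Jak3 was at 9.63 and 9.72 with the sponge, below control at 10.06 and 10.29, which overlapped miR-26a at 10.15 and 10.18, and its other probe was not called. The receptor gene Il7r was at 0.25 and was not called. Socs3 was called without the replicate block. None of 13 tested genes of the pre-B cell receptor and its signalling was called by the brightest probe, with a range of -0.26 to 0.24 and a median of -0.00, and in the same fit 12.4% of all genes were called. Among 23 B-lineage transcription factors 3 were called (13.0%, near the share of all genes): Irf4, which directs light chain rearrangement, was lower at -1.06 (10.25 and 10.51 against 11.19 and 11.69), Lef1 was lower at -0.70, and Id2, an inhibitor of E proteins, was higher at 0.70. Pax5, Ebf1, Tcf3 and the others were not called by their brightest probes, and a second probe of Sox4 was called at -0.39. Of 12 tested regulators of chromatin and DNA methylation, the polycomb methyltransferase Ezh2 was lower at -0.53 and its paralogue Ezh1 higher at 0.48. In the microRNA machinery Tnrc6a was lower at -0.50 and Eif2c1, an Argonaute gene, and Lin28a were higher at 0.46 and 0.45, of 16 tested. Ctdspl, Ctdsp2 and Ctdsp1, which host the miR-26 genes, were not called, at -0.04, -0.13 and 0.06, but another probe of Ctdsp2 was called at -0.60.

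**Figure D3:**
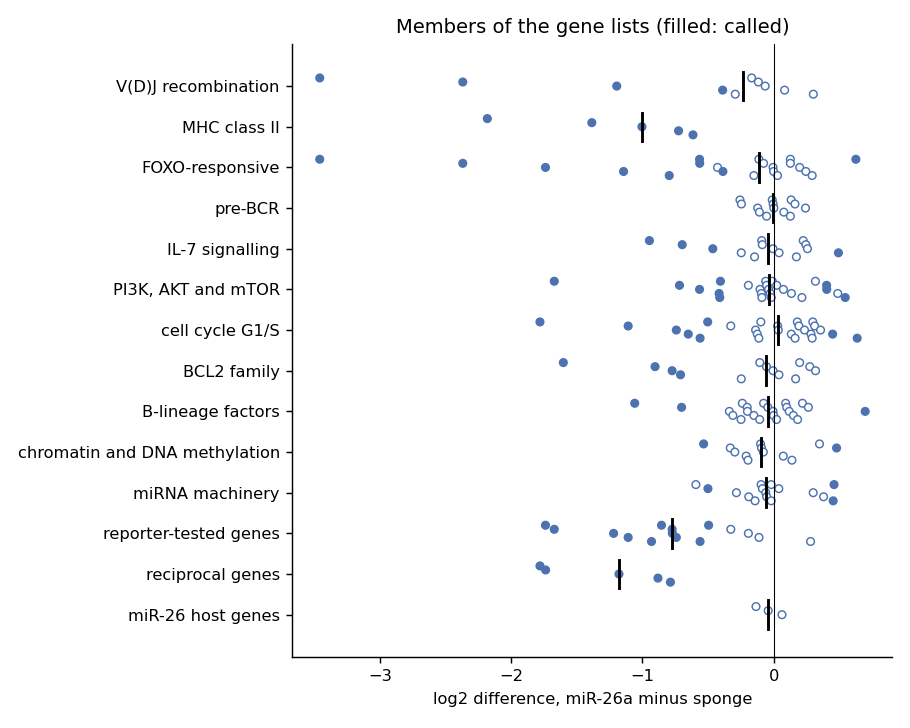
Log2 difference of miR-26a minus sponge (horizontal axis) for each tested member of 14 gene lists (rows), one point a gene, filled where called at an adjusted p under 0.05, with a black bar at the median. Points of the MHC class II and reciprocal lists are all filled and below 0, the pre-B cell receptor list has none filled, and the cell cycle list has filled points on both sides.

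Of 15 genes that the study had tested with 3′-UTR reporters, 11 were lower and none higher, with a median of -0.77, beside 6.91% lower of all genes. The study picked them with the miR-26a arrays of this series, so their direction is not independent evidence. This also holds where Trp53inp1, Stradb, Bak1, Chfr, Cdk8 and E2f7 count in other lists. Trp53inp1, Stradb, Fbxl19, Chfr, Bhlhe40, Snn, Bak1, Hmga1, Cdk8, E2f7 and Mapk6 ranged from -1.74 to -0.50, and Rb1 (-0.33), Gsk3b (-0.19), Irf1 (-0.11) and Map2k3 (0.28) were not called. Another Gsk3b probe was called at -0.64. In all 15 the control level was nearer to the sponge than to miR-26a, with positions of -0.13 to 0.38. The choice bears on these positions as well, since the study sought genes lower with miR-26a than in control. Of the 15, 7 were called with the block dropped. The 5 genes that the study had picked from these arrays as lower with miR-26a and higher with the sponge were all lower here, which the choice itself fixes: Skp2 at -1.78, Diras2, a Ras-like GTPase, at -1.74, B4galt4, a galactosyltransferase, at -1.18, the ubiquitin ligase Rnf149 at -0.88 and Ogfrl1 at -0.79. Their control positions were 0.17, 0.19, 0.42, 0.46 and 0.39, which the choice fixes too, since it asked for control between the groups. Skp2 and Diras2 were called with the block dropped.

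Probes were next sorted by the miR-26 word in their own 60 bases, read in the sense of the messenger, a property that the calls did not use. The words are the complement of the seed followed by A (8mer, TACTTGAA), without that A (7mer-m8, TACTTGA), without its first base (7mer-A1, ACTTGAA), and the core alone (6mer, ACTTGA). Each probe was put in the longest class it matched, since the shorter words lie within the longer. The 192 tested probes with an 8mer or a 7mer, 0.989% of all, had a median of -0.18 against 0.016 for all probes, and 139 of them (72.4%) lay below 0, as 46.6% of all probes did. Of the 192, 45 (23.4%) were called lower and 5 (2.60%) higher, beside 6.39% and 5.27% of all probes. The median fell with the length of the word: it was -0.31 for 35 probes with the 8mer, -0.18 for 49 with the 7mer-m8, -0.15 for 108 with the 7mer-A1, -0.05 for 194 with the 6mer and 0.018 for the rest. In pair 1 the median of the 192 was -0.19 and in pair 2 it was -0.14. Their probes were poorer in G and C, with a median of 38.3% against 43.3% for all, and its part in the difference was not tested. A probe covers only a stretch of its transcript, so the other probes may well measure messengers with sites elsewhere.

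**Figure D4:**
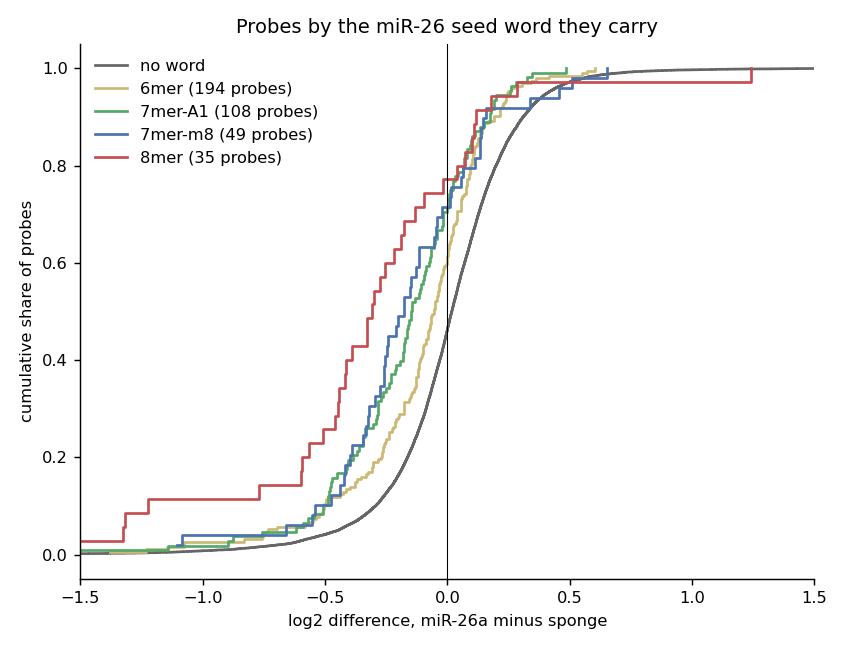
Cumulative share of probes (vertical axis) at or below each log2 difference of miR-26a minus sponge (horizontal axis, drawn from -1.5 to 1.5), by the longest miR-26 seed word in the probe. The curves shift to the left from no word to the 8mer, whose median is -0.31.

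The stretches around the word are shown for 6 of the called genes, chosen after their values were seen because the word lies in the probe itself. They are given in mm9 by the array design, 28 bases each in the sense of the messenger, with the word in capitals.
Adam19 (chr11:45960740-45960767, plus strand): catctatgcaaaaTACTTGAAtgggcca
Trp53inp1 (chr4:11101186-11101213, plus strand): gcacaatgttttctctcatcaACTTGAA
Gmds (chr13:31911536-31911563, minus strand): tttgaatcacatactcatttTACTTGAA
Irs2 (chr8:11004490-11004517, minus strand): gcatcgacttcctgtcccatcACTTGAA
Mex3b (chr7:90019814-90019841, plus strand): ttatgtatatgtaggtgacgtTACTTGA
Hmga1 (chr17:27700562-27700589, plus strand): cctggtttcttatttgcagtTACTTGAA
Adam19, a membrane metalloprotease, lay at 8.16 and 9.06 with miR-26a, at 9.99 and 10.76 with the sponge and at 9.59 and 9.99 in control (log2 -1.76, SE 0.09, adjusted p = 0.00261, limma). Its sponge arrays were above control in each pair and its miR-26a arrays below. Gmds, an enzyme of fucose metabolism, lay at 11.70 and 11.43 with miR-26a and at 13.10 and 12.67 with the sponge (-1.32). Irs2 was at -1.14, Mex3b, an RNA-binding protein gene, at -1.08, with -0.60 for its other probe, and Hmga1, a chromatin protein gene, at -0.77. Of the 35 probes with the 8mer 27 lay below 0, and 1 was called higher, that of Asb2, at 1.24. In 68 genes, at least 1 tested probe carries a 7mer or 8mer and at least 1 does not. The mean of the probes with the word was the lower in 43 of them, with a median of -0.17 against -0.07.

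Probes were also sorted by stretches that match the complement of miR-26a, since the sponge transcript carries miR-26 sites. As the methods give the site for the sponge mouse, it pairs with both ends of miR-26 around a central mismatch, and the sequence of the retroviral sponge was not used here. The complement of the 3′ end of miR-26a (its last 10 bases) holds 3 words of 8 bases, AGCCTATC, GCCTATCC and CCTATCCT, and that of the seed end is TACTTGAA. They were looked for in the sense of the messenger after the values had been seen, and only the sense strand was searched. Of the 26104 probes above background on both sponge arrays, 16 were higher on both than on every miR-26a and control array by over 1 on the log2 scale. Of those 16, 7 carried a word of the 3′ end and 2 the seed-end word, although such words are in 68 (0.122%) and 97 (0.174%) of all 55681 probes. Put the other way, 7 of 45 such 3′-end probes above background with the sponge stood out in this way (15.6%), 2 of 47 with the seed-end word (4.26%), and 7 of 26012 with neither (0.0269%). The other 38 of the 45 did not stand out. Among the 7 that did, the probes of Vmn1r27 and Vmn1r6 share sequence on both sides of the word, so that they are not separate measurements.

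Stretches of 28 bases from 6 of these probes are shown, as examples of probes that both stood out and carried a word. Capitals mark the longest run shared with the 3′-end or seed-end complement, and the coordinates are those of the array design in mm9.
Bbs1 (chr19:4889174-4889201, minus strand): acaaaccccAGCCTATCCTgcacagtaa
Vmn1r27 (chr6:58165184-58165211, minus strand): tctgatgtatGCCTATCCcacaattagt
Vmn1r6 (chr6:56953150-56953177, plus strand): gtgatgaatGCCTATCCcacaattactc
Olfr324 (chr11:58411478-58411505, plus strand): ctgcgagctGCCTATCCTtctgcacctg
Jag1 (chr2:136907450-136907477, minus strand): gctagttgaaTACTTGAAccgtaaaatg
lincRNA probe (chr15:33984512-33984539, plus strand): tagtcaaaaAGCCTATCCTgttaccata
The Bbs1 probe, for a subunit of the ciliary BBSome, gave the largest annotated difference after Rag2. It lay at 9.98 and 10.19 with the sponge, at 7.63 and 7.33 with miR-26a and at 6.97 and 6.98 in control (6.07-fold lower with miR-26a, log2 -2.60, SE 0.14, adjusted p = 0.00261, limma). Its miR-26a arrays were above control, and the sponge arrays above both. The other Bbs1 probe ran the other way, at 8.67 and 8.37 with miR-26a, 7.98 and 7.93 with the sponge and 7.90 and 8.07 in control (log2 0.57, adjusted p = 0.023, limma). The lincRNA probe lay at 8.80 and 9.40 with the sponge and between 1.24 and 1.28 on the other 4 arrays. Vmn1r27 and Vmn1r6, pheromone receptor genes, lay at 6.60 and 7.07 and at 6.03 and 6.35 with the sponge and at most at 1.37 elsewhere. Olfr324, an odorant receptor gene, lay at 7.30 and 7.85 with the sponge and between 3.24 and 3.68 elsewhere. Jag1, a Notch ligand gene, lay at 4.95 and 5.61 against 1.39 to 1.44. Whether these probes measured the sponge transcript was not tested.

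The remaining 7 of the 16 carried neither word. The one with the largest gap between the sponge arrays and the rest was a probe with no gene description, A_55_P2068199, at 9.30 and 9.80 with the sponge and between 6.62 and 6.67 on the other 4 arrays (log2 -2.93, SE 0.13, adjusted p = 0.00211, limma). A lincRNA probe, A_30_P01020769 at chr19:5845052-5845111, lay at 10.92 and 11.40 with the sponge, at 9.29 and 9.37 with miR-26a and at 9.71 and 9.59 in control (log2 -1.83). For the probes with the 8mer described before, which is also the seed-end word, the median of miR-26a minus control was -0.19 and that of sponge minus control 0.098.

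**Figure D5:**
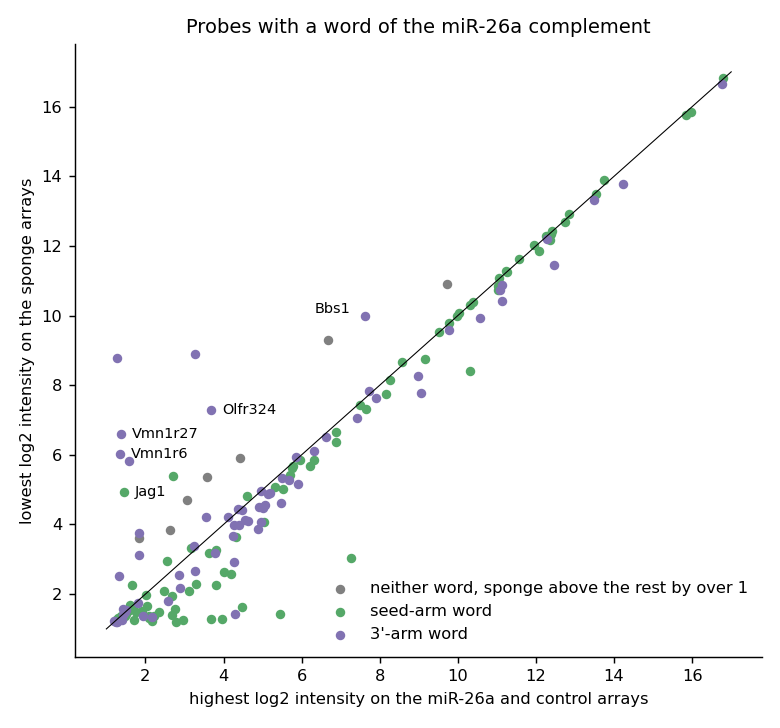
Lowest log2 intensity on the sponge arrays (vertical axis) against the highest on the miR-26a and control arrays (horizontal axis) for probes with a word of the 3′-end complement of miR-26a (purple) or of the seed-end complement (green), with the line of equality, and in grey the probes with neither word whose sponge arrays exceed the others by over 1. Most coloured points lie on or below the line, and 9 lie over 1 unit above it among probes above background with the sponge, Bbs1, Olfr324, Vmn1r27, Vmn1r6 and Jag1 among them.

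Probes above background in 1 group only cannot pass a filter on all 4 arrays and are given by a lower bound against the lowest signal that counted as above background. Of the 55681 probes on the array, 238 were above background on both sponge arrays and neither miR-26a array, and 217 the other way. Of the 238, 8 carried a word of the 3′ end of the miR-26a complement and 2 the seed-end word. Whether those measured the sponge transcript was not tested. The bound was at least 2-fold for 48 and 13 of them. With the sponge, the probe of Olfr324 was at least 17.3-fold and that of Vmn1r27 at least 10.4-fold higher. Both carry a word of the 3′ end, as described above. The probe of 1110032F04Rik was at least 7.83-fold higher, at 6.65 and 6.21 with the sponge and 5.44 and 5.38 in control. Of the 48, 20 were above background on both control arrays, which Igfbp4, an inhibitor of insulin-like growth factors, and Grb7, an adaptor protein gene, show. Igfbp4 lay at 6.07 and 5.94 with the sponge and at 5.82 and 5.72 in control, at least 5.83-fold above miR-26a, and Grb7 was at least 5.07-fold above it. With miR-26a, Casp4, an inflammatory caspase, was at least 4.04-fold and 2.68-fold higher by its 2 probes, and Capn5, a calpain, at least 3.12-fold.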

How the data were processed

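Each array came with its scanner output, deposited by the authors from Agilent Feature Extraction (version 10.7.1.1 in the submitters' notes), with the intensity of every spot, and a table of processed intensity values. That deposited table is linear and quantile-normalized: its columns share nearly the same median and upper quartile, and its log2 values correlated with the log2 scanner signals at 0.999865 or more. Here log2 was taken of the authors' values. Columns were matched to samples by their labels. Probes are named and placed (mm9) by the design of the array. The number of arrays limits the precision.

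A probe was tested if it was no control and, on all 4 arrays, was flagged well above background with a processed signal above 50. This left 19420 of 55681 probes, 4626 of them without a gene name, and the others named 10994 genes. limma 3.58.1 (R 4.3.3) was fitted with the replicate number as a block, which leaves 1 residual degree of freedom, and 4.829 prior degrees of freedom came from the spread over probes. p-values were two-sided, with Benjamini-Hochberg adjustment across the tested probes. The study's methods normalize within each experiment, and the number was taken to stand for it. Deviations from the group means correlated at 0.47 between miR-26a and sponge arrays of one number. For control arrays they correlated at 0.60 with the sponge and at 0.41 with miR-26a. The titles of the control samples point to an earlier record, so their pairing is less sure. With the block, p-values measure how far the differences of the 2 pairs disagree, moderated by the spread over probes. Spread between the 2 arrays of a group that both groups share does not count in them. The step was tested on simulated data.

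Named in the text were the 12 annotated genes with the largest called difference in each direction, the 3 with the largest bound among genes above background in 1 group only, and members of the gene lists, by the brightest probe. Further names in the last group, and the probes sorted by words of the 3′ end of miR-26a, were picked with their values in view. The members and lists were chosen with earlier results of these data known. Some genes that the rules cover are not reported here. Lists not described above had these calls, where 12.4% of all genes were called: of 4 homing genes tested Klf2 was lower and Itgb1 higher, of 14 p53 targets 3 were lower (Trp53inp1, Bbc3 and Bak1), of 8 interferon-response genes Ifih1 was higher, and of 9 prostanoid and oxidative stress genes Ptgs1 was higher. Of the tested B-lineage, T and natural killer and plasma cell markers none was called, Fcgr3 was lower among the myeloid markers and Gp9 higher among the erythroid and megakaryocyte markers.

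Alternatives were the fit without the block, all 6 arrays, scanner signals scaled by quantiles or by the 75th percentile, normexp with an offset of 50, other filters, averaged probes, a variance trend, an unpaired t-test of each probe, a t-test of the log ratios, and leaving out each array with the control arrays in the fit. A filter on the background flag alone was added after the data had been seen. Tables were made with Python 3.11.15, numpy 2.4.6 and pandas 2.3.3, and plots with matplotlib 3.10.9.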

Additional observations from a re-analysis of the deposited data

How the results depend on the processing

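The 24 genes with the largest called differences kept their direction under each alternative run, with 12 of them left by a minimum signal of 200. For the probes called, 1241 lower and 1023 higher, the counts without the replicate block were 186 and 61, all of them among the called probes. With all 6 arrays they were 1756 and 1772, with a variance trend 1818 and 1807, and leaving out 1 array at a time gave 479 to 1381 lower and 300 to 1184 higher. With no filter on dim probes, with the background flag as the only filter, by an unpaired t-test and by a t-test of the 2 log ratios, 0 probes were called in either direction. At an unadjusted p under 0.05 these gave 2909 lower and 2915 higher, 2741 and 2987, 1253 and 1347, and 1056 and 1123. With the replicate block dropped 7 of the 24 named genes were not called, as given beside them. The median of probes with a miR-26 7mer or 8mer, minus that of all probes, was -0.192 and ranged from -0.203 to -0.155 when 1 array was left out. It was -0.151 with normexp correction and -0.021 with no filter. The cause of the other changes was not tested. With 2 arrays a group and dim probes at the scanner's lower limit, small differences and those of weakly expressed genes are not resolved.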
